A study of Mus musculus with 36 samples.

Results

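Fatty acid oxidation and ketone body formation were followed in regenerating mouse liver through 41 genes, taken from a given list of symbols that runs from the regulators of the pathway to its last enzymes. All 41 were found among the 21955 gene symbols of the count tables, and all 41 were among the 13436 genes that passed the filter on low counts. The libraries hold total RNA from livers of C57BL/6JN mice, an inbred laboratory strain, either young (4 months) or old (18 months). Livers were taken before regeneration and at time points labelled 48, 72, 96, 120 and 240, with 3 biological replicates in each of the 12 groups and 36 libraries in all. The labels give no unit for the time points, no method by which regeneration was started, no sex and no genotype beyond the strain. Young and old groups shared tissue and protocol, except that spike-in mix 1 was added to young RNA and mix 2 to old RNA.

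Liver cells activate long-chain fatty acids to acyl-CoA, carry them into mitochondria on carnitine and shorten them in repeated rounds of dehydrogenation, hydration, oxidation and thiolysis. The acetyl-CoA released is burned or made into ketone bodies, which the liver exports as fuel, above all in fasting. The nuclear receptor Ppara, which binds DNA with its partner RXR, switches on many of these genes, and peroxisomes and omega oxidation take fatty acids that mitochondria handle poorly or that are in excess.

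Levels are given as CPM, counts scaled to a common library size by TMM totals (the usual CPM), in replicate order 1 to 3. Differences are log2 fold changes with their standard error (SE), and genes count as called where the p-value, adjusted over all genes tested, was under 0.05. Total counts ran from 2328233 to 6034446 per library. In 12 libraries, 1 in each group, Y-linked transcripts summed to at least 180 CPM of raw totals, against at most 0.211 CPM in the other 24. Each group thus mixed both kinds, and results that touch on this are given by kind. Summed levels of 10 hepatocyte markers lay between 41712 and 68911 CPM in every library, although Ass1 among them reached at most 1.23 CPM. Of 6 T and B cell markers, Cd3d and Cd3e stayed at or below 1.12 CPM and Ms4a1 reached the highest level, 8.80 CPM. Of 5 adipocyte markers, Lep, Plin1 and Retn stayed at or below 1.01 CPM, Adipoq reached 6.20 CPM and was at 0 in 28 libraries, and Cidec ranged over 1.52 to 213 CPM. Bulk RNA cannot tell fewer cells of a type from less RNA per cell.

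The promoters of the members were searched for the element that Ppara binds with RXR, written AGGTCANAGGTCA and called DR1, on either strand. RefSeq promoter windows of 300 bases (250 before to 50 after a start) on GRCm38.p6 matched 33 of the 41 members. An exact DR1 was in 0 of the 33, and in 0.0481% of the 27025 genes with a window. With at most 2 mismatches over the 12 fixed bases, 5 of 33 members (15.2%) held a match, against 4.4% of all genes. The single element AGGTCA was in 7 of 33 members (21.2%) and in 18.1% of all genes, and it is part of any exact DR1. These matches describe letters in a window and were not tested for binding. The 5 closest matches are shown because they name the members whose start regions come nearest to the element. Capitals mark the 13 bases of each site, its mismatches and free base included, with 8 bases on each side. The printed stretches lie at chr13:91741403-91741431 (Acot12, 1 mismatch), chr12:84038358-84038386 (Acot4, 2 mismatches), chr9:108662134-108662162 (Slc25a20, 2 mismatches), chr7:140116484-140116512 (Echs1, minus strand, 2 mismatches) and chr9:55512300-55512328 (Etfa, minus strand, 2 mismatches).
Acot12: taggacccTGACCTCTCACCTcctaagca
Acot4: ccgaagcaTGACCTTTGGCCGgtctgtgc
Slc25a20: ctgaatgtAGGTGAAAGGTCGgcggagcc
Echs1: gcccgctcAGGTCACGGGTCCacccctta
Etfa: gcacacccTTACCTTTGCCCTactcccaa

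The matches began at bases -110 (Acot12), -83 (Echs1), -77 (Etfa), -13 (Acot4) and 7 (Slc25a20) from the start. At 48 in old mice their genes did not move as a group: Slc25a20 was called higher, Echs1 was called lower, and Acot12, Acot4 and Etfa were not called. At 72 in young mice all of them had negative log2 fold changes (-1.55 to -0.12), as did 35 of the 41 members. Acot12 and Echs1 were called lower there.

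In young mice the called members were almost all lower than before, and all calls fell at 48 and 72. At 48, 7 of the 41 members were called lower than before and 0 higher, while 9.79% of all genes tested were called lower and 12.2% higher. The 7 were Ppara, Acsl1, Acad11, Acaa2, Acaa1b, Decr2 and Acot12. The median log2 fold change of the members was -0.17, beside -0.01 over all genes tested. At 72, 8 members were called lower (Acsl1, Acad11, Echs1, Acaa2, Eci2, Acaa1b, Decr2 and Acot12) and 1 higher (Crat), beside 8.21% and 9.21% of all genes. The members' median was then -0.46, beside 0.01 over all genes, and 35 of 41 values were negative.

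From 96 on, edgeR called 0 members in young mice, beside 1.4% of all genes at 96, 0.581% at 120 and 0.246% at 240. Unadjusted p-values were under 0.05 for 7 members at 96, 8 at 120 and 0 at 240, and DESeq2 called 3, 1 and 0 members. Fitted on only the groups compared, edgeR called 5 at 96 and 3 at 120. Signs stayed mostly negative at 96 (35 of 41) and 120 (38 of 41), with medians of -0.32 at both, and the median was -0.08 at 240. These 5 comparisons share the 3 libraries taken before.

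In old mice most members called at 48 were higher than before. There, 14 of 41 members were called higher than before and 3 lower, beside 12.1% and 12% of all genes tested. The members' median was 0.33, beside 0.01 over all genes, with 27 positive values. Called higher were Pdk4, Angptl4, Slc22a5, Slc25a20, Cpt2, Crat, Acadvl, Acadl, Hadha, Hadhb, Etfdh, Ehhadh, Acot1 and Acot2, and called lower were Echs1, Acaa1b and Decr2. The count rests in part on single libraries: it was 9 without old replicate 2 at 48, 11 without replicate 1, 10 without old replicate 1 before and 9 without old replicate 2 before. Without the 12 libraries that carried Y-linked transcripts it was 10, of which 4 were higher. A fit of only these groups called 1, Acaa1b, which was lower, so none of the 14 called higher was called there. Calls over all genes under these settings are not given here, so a change in power shared by all genes cannot be told apart.

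**Figure D1:**
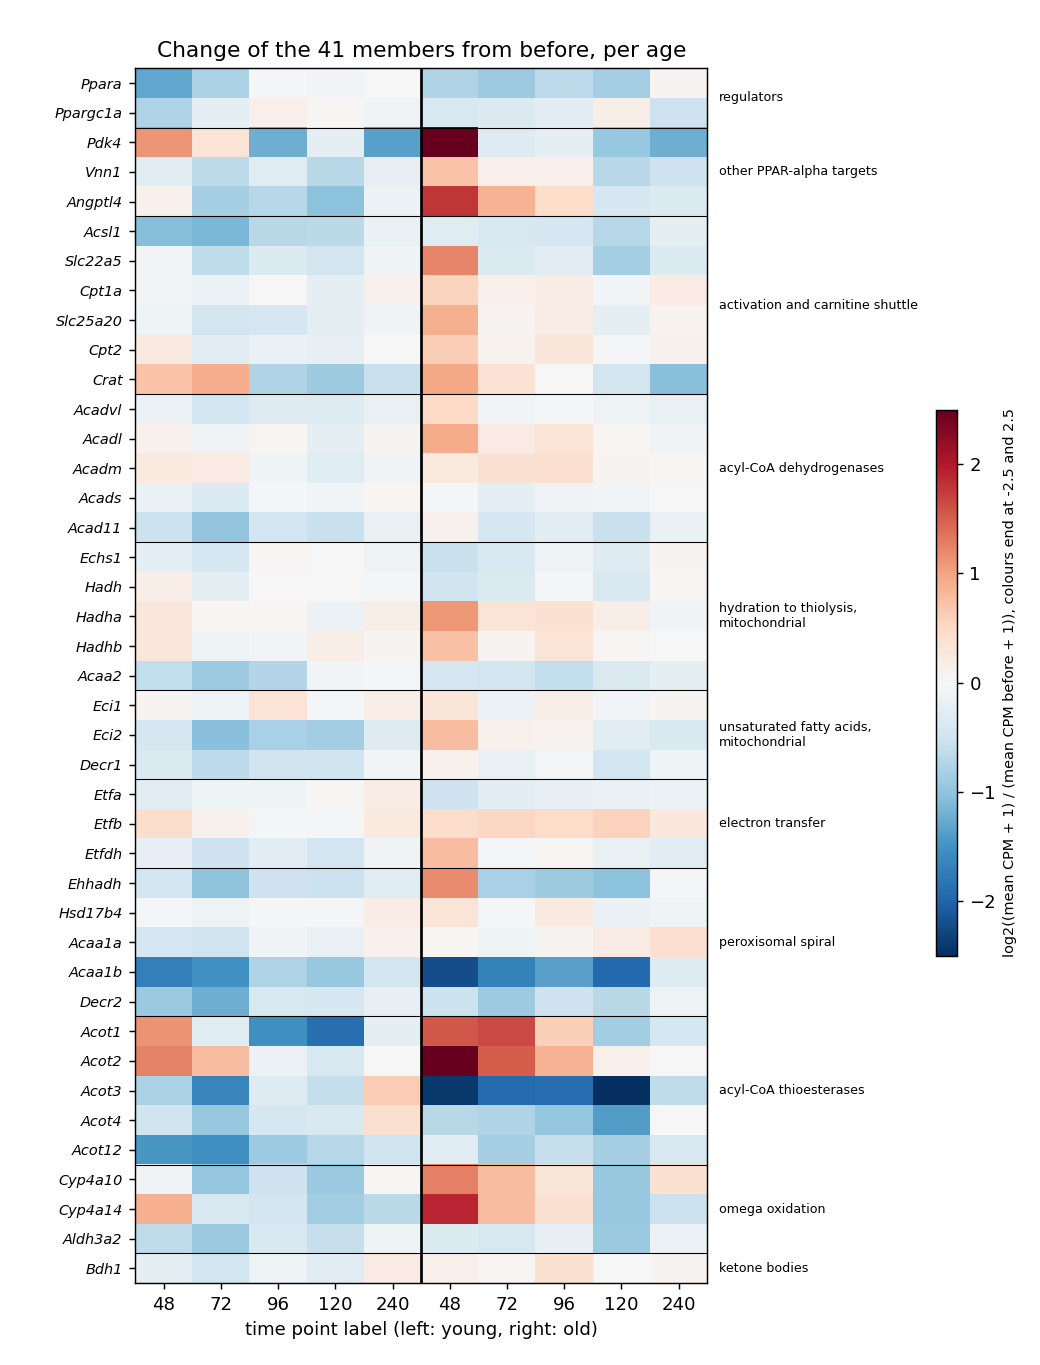
Change of each of the 41 members from before, as log2 of the ratio of mean CPM + 1, for young (left of the thick line) and old (right) mice at the time points labelled 48 to 240, with members grouped by role. Red marks higher and blue lower than before in the same age, and the reddest column is old at 48, where the fitted log2 fold change of Pdk4 was 3.82 and that of Acot2 was 2.90.

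Later time points in old mice held few calls. At 72, 1 member was called higher (Acot1) and 4 lower (Ppara, Acaa1b, Decr2 and Acot12), beside 6.54% and 5.81% of all genes. At 96, 0 members were called higher and 1 lower (Acaa1b), beside 3.76% and 3.07%. At 120, 0 were called higher and 3 lower (Acsl1, Acaa1b and Decr2), beside 1.85% and 2.02%, and 32 of 41 values were negative (median -0.37). That count of 3 was 9 without the libraries carrying Y-linked transcripts, 5 in DESeq2 and 0 in a fit of only these groups. At 240, edgeR and DESeq2 called 0 members, beside 0.156% of all genes, with 1 unadjusted p under 0.05.

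Between the ages, 48 was the time point with most called members. Before regeneration edgeR and DESeq2 called 0 members, beside 0.0595% of all genes, with 2 unadjusted p-values under 0.05. At 48, 7 of 41 members were called higher in old than in young mice and 0 lower, beside 4.42% and 6.78% of all genes. They were Pdk4, Slc22a5, Slc25a20, Crat, Hadha, Ehhadh and Acot2, and 31 of 41 members had positive values, with a median of 0.36 beside 0.02 over all genes. The count fell to 0 without old replicate 2 at 48 and rose to 13 without old replicate 3. It was 3, 4 and 2 without young replicates 1, 2 and 3, 3 without the libraries carrying Y-linked transcripts, and 0 in a fit of only these groups. Here too the calls over all genes under these settings are not given.

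At 72, edgeR and DESeq2 called 0 members between the ages (background 0%, 2 unadjusted p-values under 0.05), with 33 positive values and a median of 0.15. At 96, 1 member was called higher (Crat) and 0 lower, beside 0.134% and 0.0372% of all genes. Both tools called 0 members at 120 (background 0%, 8 unadjusted p-values under 0.05) and at 240 (background 0.0149%, 4 unadjusted p-values under 0.05). Averaged over the 6 time points, 4 members were higher in old mice (Pdk4, Vnn1, Crat and Acot2) and 2 lower (Acaa2 and Acaa1b), beside 3.39% and 2.59% of all genes. That count was 2 without the libraries carrying Y-linked transcripts.

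Whether the time course differs between the ages was tested directly. The age by time interaction called 0 members in edgeR, beside 2.76% of all genes, with 9 unadjusted p-values under 0.05, a lowest adjusted p of 0.117 and 3 calls in DESeq2. The difference in the change from before to 48, a contrast chosen after the data were seen, called 0 members, beside 1.38% of all genes. It had 13 unadjusted p-values under 0.05, 33 of 41 positive values, a median of 0.46 and 2 calls in DESeq2, and it called 7 members in edgeR without old replicate 3 at 48. In the edgeR fit with 1 mean per group over all 36 libraries, a call at 48 in old mice without one in young mice is thus not shown to differ between the ages.

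**Figure D2:**
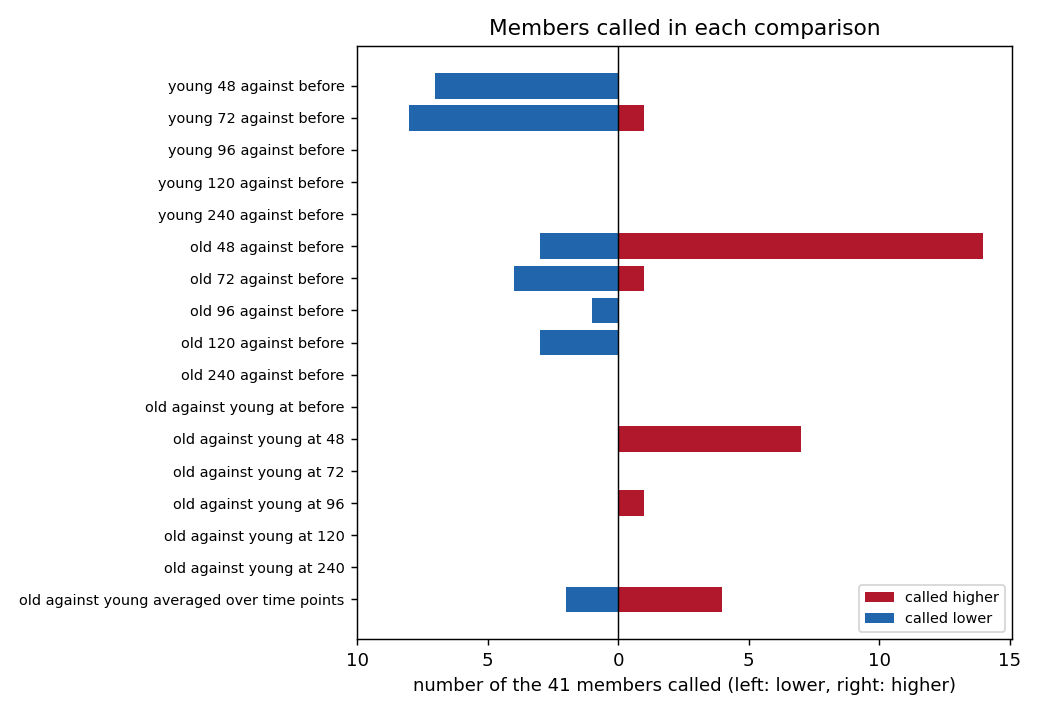
Number of the 41 members called at an adjusted p under 0.05 in each comparison, with members called lower to the left of 0 and called higher to the right. Old mice at 48 against before stand out with 14 called higher and 3 lower, while young mice at 48 had 7 called lower and 0 higher.

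Among the regulators, Ppara, the receptor that drives much of the module, was called lower in young livers at 48 and in old livers at 72. In young livers it was at 1083, 1101 and 948 CPM before, 369, 553 and 352 at 48 and 467, 476 and 868 at 72. All libraries at 48 lay below all before, with a log2 change of -1.30, SE 0.29, adjusted p = 0.00156. By 96 Ppara was at 1047, 886 and 1095 CPM and by 240 at 982, 974 and 1169. Old livers held 762, 1005 and 1254 CPM before, 597, 724 and 475 at 48 and 751, 523 and 337 at 72. Again the libraries at 48 lay below those before, but the log2 fold change of -0.75 had an adjusted p of 0.0572, and of 0.0385 without old replicate 1 before (-0.89). It was called at 72 (-0.91, SE 0.29, adjusted p = 0.0385), a call lost under 9 of 14 alternative settings, among them without old replicate 2 or 3 at 72 or before (adjusted p 0.0892 to 0.21). Old and young overlapped at 48 (log2 difference 0.50, adjusted p = 0.291). Ppargc1a, a coactivator of Ppara, was called in none of the comparisons and had values of -0.79 in young and -0.41 in old mice at 48.

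Pdk4, the kinase that switches off pyruvate dehydrogenase and so spares glucose when fat is burned, had the highest log2 fold change of the module. It was at 12.7, 27.9 and 107 CPM in old livers before and at 128, 1933 and 31.3 CPM at 48. Replicate 2 stands far above the others there, replicate 3 lies within the range before, and the groups overlap. The fitted log2 fold change was 3.82, SE 0.97, adjusted p = 0.00612, and it dropped to 0.72 (adjusted p = 0.512) without replicate 2. In young livers Pdk4 was at 11.2, 24.1 and 34.1 CPM before and 65.9, 53.3 and 34.2 at 48, with a log2 change of 1.15, SE 0.92, adjusted p = 0.408. Old exceeded young at 48 by 3.77, SE 0.97, adjusted p = 0.0116, or 0.62 (adjusted p = 0.737) without old replicate 2 and 3.53 (adjusted p = 0.061) without young replicate 3. The sign was positive at all 6 time points and the average was 1.5, SE 0.39, adjusted p = 0.0205. At 96 old livers held 55.0, 37.4 and 30.9 CPM and young livers 7.54, 8.55 and 11.9, with no overlap, but this difference was not called. The libraries of the ages overlapped at every other time point. Without old replicate 2 at 48 the average was 0.98 (adjusted p = 0.0397), and without the libraries carrying Y-linked transcripts it was 1.48 (adjusted p = 0.111). The call of the average was lost under 2 of 43 alternatives (adjusted p up to 0.273).

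Angptl4, a secreted inhibitor of lipoprotein lipase, was at 58.9, 74.4 and 172 CPM in old livers before and at 466, 413 and 184 at 48. All libraries at 48 lay above all before, and the log2 fold change was 1.80, SE 0.58, adjusted p = 0.0244, a call lost under 6 of 14 alternatives, among them without old replicate 1 or 2 at 48 or before (log2 fold changes of 1.55 to 1.70). Young livers held 156, 214 and 95.6 CPM before and 129.9, 133 and 237 at 48, which overlap (log2 fold change 0.10, adjusted p = 0.924). The age difference at 48 was 1.09, SE 0.56, adjusted p = 0.232, with overlapping libraries. Vnn1, a pantetheinase of the liver, was at 215, 286 and 144 CPM in old and 87.9, 76.1 and 90.4 in young livers at 48. Those groups do not overlap, but the adjusted p was 0.0671. Averaged over time points Vnn1 was higher in old mice (0.65, SE 0.19, adjusted p = 0.0435), with that sign at 5 of 6 time points.

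**Figure D3:**
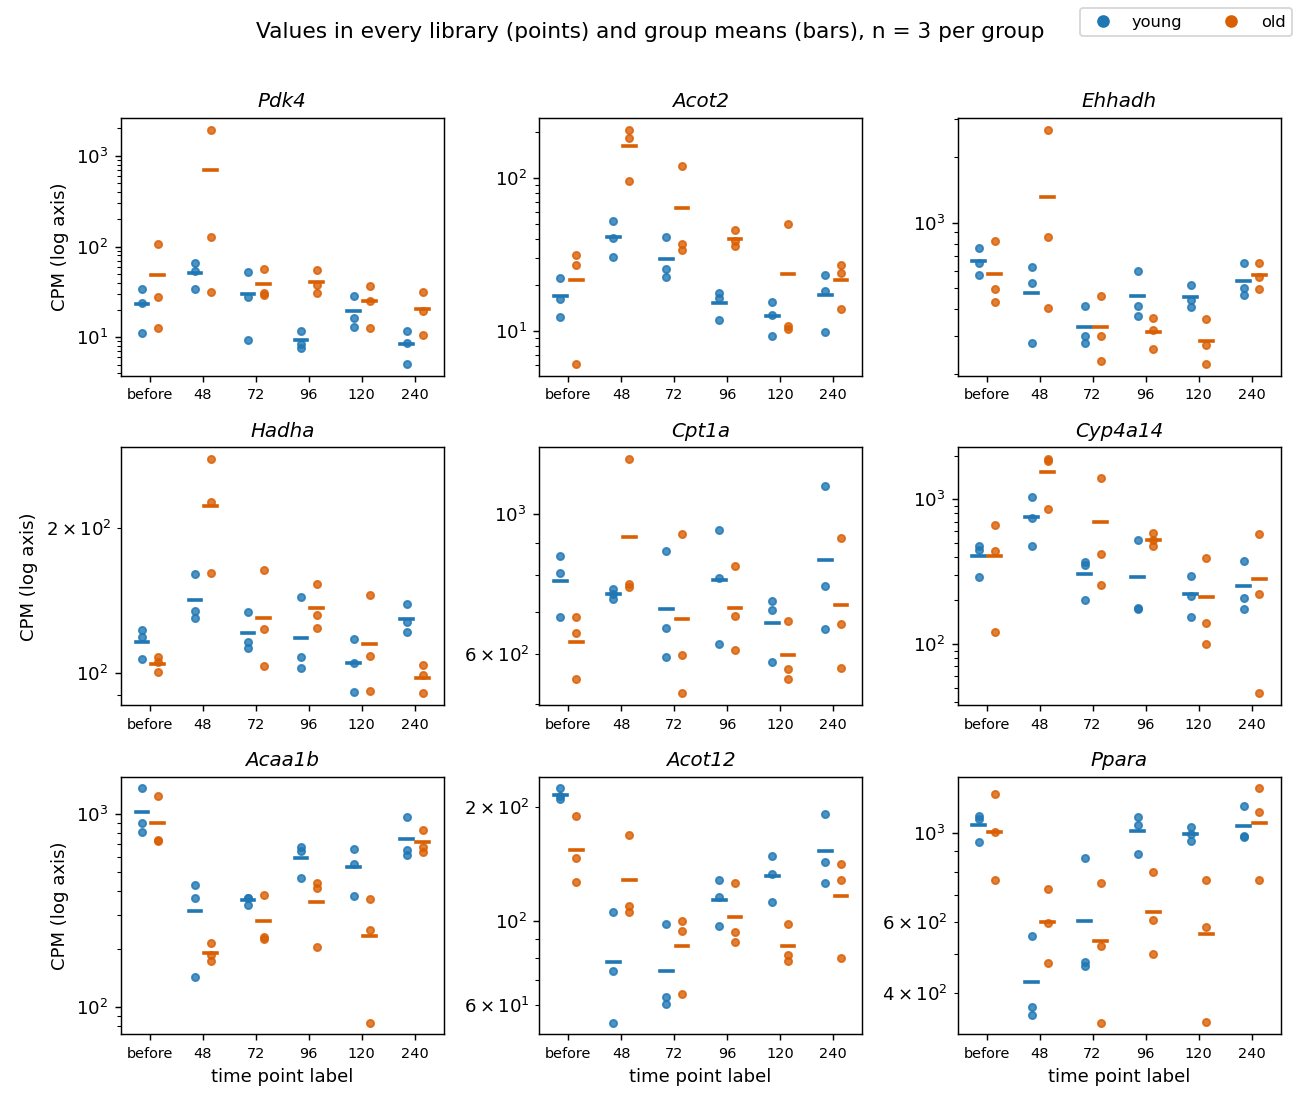
Level of 9 members in every library (points, CPM on a log axis) and the group means (bars) by time point label, young in blue and old in orange, with 3 libraries per group. The points show the wide spread of old livers at 48 for Pdk4 (31.3 to 1933 CPM) and Ehhadh, and the drop of Acot12 and Ppara in young livers at 48.

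Of the 6 members that activate fatty acids and carry them on carnitine into mitochondria, 4 were called higher in old livers at 48 and 0 lower, beside 12.1% and 12% of all genes. In young livers at 48, 0 were called higher and 1 lower, beside 12.2% and 9.79%. Acsl1, which makes acyl-CoA, was the member that fell in young livers, from 1016, 1039 and 914 CPM before to 451, 576 and 389.8 at 48 and 395, 359 and 589 at 72. Neither later group overlaps the group before, with log2 changes of -1.07, SE 0.21, adjusted p = 0.000332, and -1.14, SE 0.21, adjusted p = 0.000528. These 2 calls held under all 14 alternatives each. In old livers Acsl1 started at 596, 725 and 751 CPM and was at 626, 568 and 487 at 48, which was not called (-0.30, adjusted p = 0.289). At 120 it was at 438, 381 and 452 CPM and called lower (-0.71, SE 0.21, adjusted p = 0.0476), a call lost under 9 of 14 alternatives, among them without any 1 of the libraries at 120 or without old replicate 2 or 3 before (adjusted p 0.0624 to 0.218).

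Cpt1a, the outer-membrane carnitine palmitoyltransferase that sets the pace of entry, was not called in any comparison, although total-count scaling gave an adjusted p of 0.0497 in old livers at 48. Young livers held 859, 806 and 686 CPM before and 733, 759.8 and 746 at 48, and old livers 547, 649 and 686 before and 1224, 767 and 775 at 48. In old livers the groups did not overlap, with a log2 change of 0.56, SE 0.23, adjusted p = 0.0786, and the high library was replicate 1. The young value was -0.07 (adjusted p = 0.864) and the age difference at 48 was 0.30 (adjusted p = 0.445).

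Slc25a20, the carrier that swaps acylcarnitine for carnitine across the inner membrane, rose in old livers from 68.8, 71.5 and 71.4 CPM before to 147, 148 and 99.2 at 48. It was at 83.4, 98.7 and 78.5 CPM in young livers before and 90.9, 88.5 and 62.8 at 48. Old libraries at 48 lay above all old libraries before (0.90, SE 0.22, adjusted p = 0.00332) and above all young libraries at 48 (0.70, SE 0.21, adjusted p = 0.0293). Both calls were lost in a fit of only the groups compared, and the age call also without old replicate 2 at 48. On the log2(CPM + 1) scale, the age difference was 1.215 in libraries with Y-linked transcripts and 0.433 in the others. Cpt2, which gives the acyl group back to CoA, was called higher at 48 in old livers (0.63, SE 0.19) and not in young ones (0.25, SE 0.19). Slc22a5, the carnitine importer of the cell surface, was at 89.8, 293 and 45.2 CPM in old livers at 48, where replicate 2 stands apart. Before, old livers held 29.6, 70.4 and 82.1 CPM, and young livers at 48 held 41.8, 66.0 and 47.6. Both calls at 48 come with overlapping libraries (1.23, SE 0.46, adjusted p = 0.0493 against before, and 1.46, SE 0.46, adjusted p = 0.0372 against young), and without old replicate 2 the age difference was 0.37 (adjusted p = 0.708), or 1.32 to 1.67 and not called without any 1 young library. Of the 50-base transcript stretches of Slc22a5, 26.1% also occur in Slc22a21, so its counts are uncertain.

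Crat, the carnitine acetyltransferase that buffers acetyl-CoA, had a higher fitted level in old livers at every time point. Old livers held 29.8, 48.5 and 47.5 CPM before, 84.7, 115 and 49.7 at 48 and 57.5, 42.0 and 27.3 at 96. Young livers held 37.7, 21.6 and 15.3 CPM before, 42.2, 30 and 52.2 at 48 and 15.9, 17.3 and 9.95 at 96. The averaged difference was 0.82, SE 0.13, adjusted p = 0.000253, positive at 6 of 6 time points, and it was called under all 43 alternatives. At 96 the ages did not overlap (1.53, SE 0.33, adjusted p = 0.0474), a call lost under 8 of 14 alternatives, among them without old replicate 1 or 2 or any young library at 96 (adjusted p 0.093 to 0.269). In young livers Crat was the member called higher at 72, at 45.3, 40.6 and 55.7 CPM (0.92, SE 0.31, adjusted p = 0.042), a call lost under 7 of 14, among them without any 1 library at 72 or without young replicate 2 or 3 before (adjusted p 0.0628 to 0.195).

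Of the 5 acyl-CoA dehydrogenases, which open each round of oxidation, 2 were called higher in old livers at 48, beside 12.1% of all genes. Acadl, for long chains, went from 50.7, 96.3 and 99.2 CPM to 158, 195 and 119 (0.94, SE 0.27, adjusted p = 0.0124), with no overlap. Acadvl, for very long chains, went from 460.2, 525 and 553 CPM to 752, 885 and 544 (0.50, SE 0.17, adjusted p = 0.0347), where replicate 3 lies within the range before. Acadm, for medium chains, was not called in any comparison, although without old replicate 2 its value in old livers at 48 was 0.51 (adjusted p = 0.0492). It was at 228, 228 and 255 CPM in old livers before and 388, 177 and 272 at 48, so that replicate 2, the library with the highest Pdk4, was here the lowest of the 6. In young livers Acadm was at 242, 254 and 255 CPM before and 293, 291 and 309 at 48. The log2 fold changes at 48 were 0.25, SE 0.20 in young and 0.24, SE 0.20 in old livers, with adjusted p = 0.394 and 0.393, and the age difference was -0.09. Acads, for short chains, was not called either and ranged over 54.9 to 109 CPM. Acad11 was called lower in young livers at 48 (-0.54, SE 0.20) and 72 (-0.99, SE 0.20), and had 0.11, SE 0.20 in old livers at 48.

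Hydration, oxidation and thiolysis in mitochondria held members that moved in opposite directions. Hadha, the subunit of the trifunctional protein with hydratase and dehydrogenase activity, was at 105, 108 and 101 CPM in old livers before and at 277, 226 and 161 at 48. Every library at 48 lay above every library before, with a log2 change of 1.08, SE 0.18, adjusted p = 0.000133. Young livers held 119, 123 and 107 CPM before and 160.1, 129.9 and 134 at 48, which did not overlap but had a log2 change of 0.28, SE 0.18, adjusted p = 0.277. At 48 all old libraries lay above all young ones (0.65, SE 0.18, adjusted p = 0.0166), a call lost under 6 of 14 alternatives, among them leaving out old replicate 2 (0.62, adjusted p = 0.067) old replicate 1 (0.45, adjusted p = 0.117), young replicate 2 or 3 (0.59 and 0.60) or the libraries carrying Y-linked transcripts (0.40, adjusted p = 0.262). Hadhb, the thiolase subunit of the same protein, rose in old livers at 48 from 31.2, 23.0 and 31.7 to 63.4, 43.1 and 38.0 CPM (0.75, SE 0.24, adjusted p = 0.0213).

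Hadha and Hadhb are read in opposite directions from starts 273 bases apart on chromosome 5, with Hadha at bases 30119423 to 30154980 and Hadhb at 30155253 to 30184593 (GRCm38). The 250 bases before the Hadhb start, chr5:30155003-30155252, are printed because both genes of this shared start region were called higher in old livers at 48.
Hadhb: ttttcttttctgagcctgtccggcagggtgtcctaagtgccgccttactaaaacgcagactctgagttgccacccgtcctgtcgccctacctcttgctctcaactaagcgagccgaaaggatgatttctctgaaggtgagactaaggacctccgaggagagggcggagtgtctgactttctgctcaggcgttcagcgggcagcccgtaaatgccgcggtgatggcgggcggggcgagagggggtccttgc

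The stretch holds 17 CG pairs, is 58.8% G or C, and has 0 matches to AGGTCA on either strand. Of the 3 other members of these steps, Echs1, the short-chain hydratase, was at 121, 90.3 and 111 CPM in old livers before and 77.6, 73.3 and 66.5 at 48, and was called lower with no overlap (-0.57, SE 0.15, adjusted p = 0.00578). It was also called lower in young livers at 72 (-0.45, SE 0.15). Acaa2, the mitochondrial thiolase, was called lower in young livers at 48 (-0.62, SE 0.22) and 72 (-0.92, SE 0.22) and was lower in old mice on average (-0.38, SE 0.09, adjusted p = 0.0102), with that sign at 5 of 6 time points. Hadh, the short-chain dehydrogenase, was not called. It was at 223, 61.2 and 215 CPM in old livers at 48, where replicate 2 is the lowest of all 36 libraries, against 288, 288 and 173 in young ones.

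**Figure D4:**
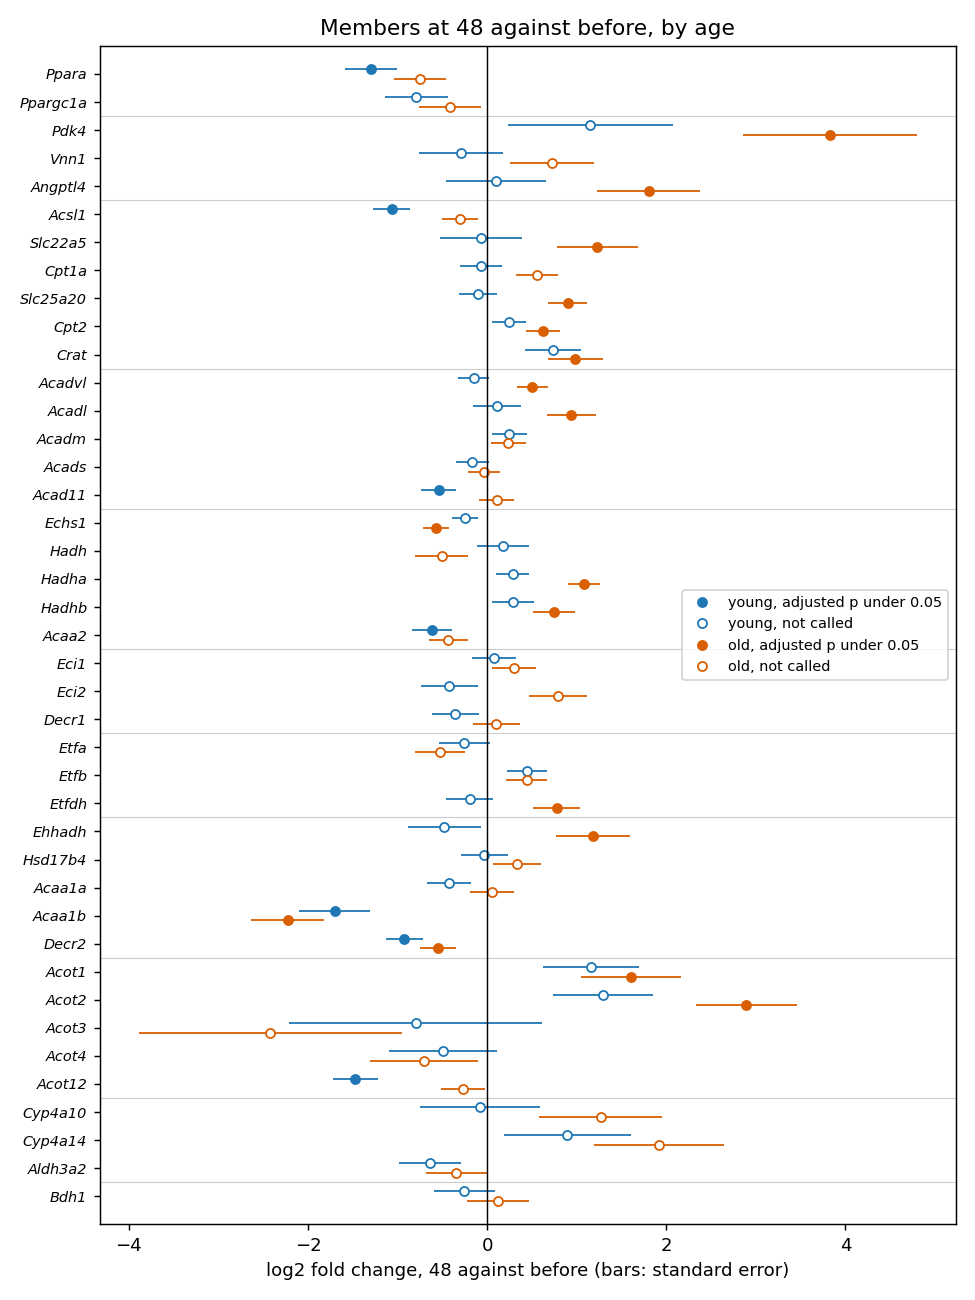
Log2 fold change at 48 against before for each member, young in blue and old in orange, with bars for the standard error and filled points where the adjusted p was under 0.05. Filled orange points lie mostly right of 0 (14 higher, 3 lower) and filled blue points all left of 0 (7 lower).

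The enzymes that handle double bonds in mitochondria showed 1 call. Eci2, an enoyl-CoA isomerase, was called lower in young livers at 72 (-1.06, SE 0.33, adjusted p = 0.0249), where it was at 38.8, 39.1 and 53.7 CPM against a mean of 91.1 ± 19.0 (SD, n = 3) before. In old livers it was at 45.5, 57.4 and 73.2 CPM before and 106, 153 and 45.8 at 48, which overlap (0.79, adjusted p = 0.0724). Eci1 and Decr1 were not called. Of the electron transfer members, which pass electrons from the dehydrogenases to the respiratory chain, Etfdh was called higher in old livers at 48 (0.77, SE 0.26, adjusted p = 0.0304), where it was at 92.0, 132 and 61.8 CPM against 60.8, 52.5 and 53.6 before. Etfa and Etfb, the partners in the soluble carrier, were not called (43.8% of the 50-base stretches of Etfb also occur in Gm45233), with -0.53, SE 0.28 and 0.44, SE 0.23 in old livers at 48.

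In peroxisomes, Ehhadh and the thiolase Acaa1b moved in opposite directions in old livers at 48. Ehhadh, the bifunctional enzyme, was at 429, 490.4 and 821 CPM in old livers before and at 854, 2686 and 400.5 at 48. Replicate 2 stands far above the rest and replicate 3 lies below all 3 libraries before, so the groups overlap. The log2 fold change was 1.18, SE 0.41, adjusted p = 0.0376, and 0.14 (adjusted p = 0.814) without replicate 2, and it was not called without old replicate 1 or 2 before (1.03 and 1.07). Young livers held 571, 649 and 765 CPM before and 526, 620.4 and 277 at 48 (-0.48, SE 0.41, adjusted p = 0.44). The age difference at 48 was 1.47, SE 0.42, adjusted p = 0.0203, and 0.39 (adjusted p = 0.63) without old replicate 2, and it was not called without young replicate 1 or 3 (1.54 and 1.18).

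Acaa1b was called lower in both ages at 48 and 72, and in old livers also at 96 and 120, which is more comparisons than for any other member. Old livers held 736, 726 and 1238 CPM before, 215, 174 and 187 at 48, 380.3, 232 and 226 at 72 and 205, 440.5 and 413 at 96. At 120 they held 250.3, 83.2 and 365 CPM and at 240 637, 679 and 831. None of the groups from 48 to 120 overlaps the group before, with log2 changes of -2.23, SE 0.40, adjusted p = 0.000321 at 48, -1.69, SE 0.40 at 72, -1.35, SE 0.39 at 96 and -1.95, SE 0.40 at 120. Young livers went from 1359, 807 and 904 CPM before to 367, 430.5 and 144 at 48 and 338, 367 and 369 at 72, again with no overlap (-1.70, SE 0.40, adjusted p = 0.00228, and -1.52, SE 0.40, adjusted p = 0.00896). Averaged over time points Acaa1b was lower in old mice (-0.54, SE 0.16, adjusted p = 0.0383) with that sign at 6 of 6 time points, a call lost under 23 of 43 alternatives, 19 of which leave out 1 library (adjusted p up to 0.0718). The old calls were also lost without old replicate 3 before, at 72 (-1.36), 96 (-1.03) and 120 (-1.63), the call at 96 also without old replicate 1 or 2 at 96 or old replicate 2 before, the young call at 48 without the libraries carrying Y-linked transcripts (-1.08, adjusted p = 0.077), and the young call at 72 without young replicate 1 before (-1.26, adjusted p = 0.0535). Of its transcript stretches of 50 bases, 30.5% also occur in Acaa1a, so its counts are uncertain. Acaa1a itself was not called.

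Decr2, the peroxisomal dienoyl-CoA reductase, went from 189.7, 231 and 179.9 CPM in young livers before to 106, 129 and 81.1 at 48 and 72.8, 84.6 and 98.0 at 72, with no overlap (-0.93, SE 0.21, and -1.23, SE 0.21, adjusted p = 0.000333). In old livers it went from 166, 158 and 206 CPM to 133, 130.5 and 98.6 at 48 (-0.55, SE 0.20, adjusted p = 0.049) and 123, 78.2 and 78.5 at 72 (-0.92, SE 0.21, adjusted p = 0.0037). At 120 it was at 102, 93.8 and 131 CPM (-0.70, SE 0.21, adjusted p = 0.0498). The old calls at 48 and 120 were lost under 11 and 10 of 14 alternatives, that at 48 without any 1 of its 6 libraries (adjusted p 0.0579 to 0.228) and that at 120 without replicate 1 or 2 at 120 or any library before (adjusted p 0.0586 to 0.27), and both calls at 72 held under all 14. Hsd17b4, the other bifunctional enzyme of peroxisomes, was not called and ranged over 51.5 to 124 CPM.

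Acyl-CoA thioesterases, which cut acyl-CoA back to free acid, split into rising and falling members. Acot2, the mitochondrial form, was at 6.10, 27.3 and 31.7 CPM in old livers before and 207, 182 and 96.3 at 48, with no overlap (2.90, SE 0.56, adjusted p = 0.000713, a fold change of 7.44). Young livers held 12.5, 22.4 and 16.2 CPM before and 52.5, 40.9 and 30.8 at 48, also without overlap, but the log2 fold change of 1.29, SE 0.56 was not called (adjusted p = 0.0994). All old libraries at 48 lay above all young ones (1.96, SE 0.54, adjusted p = 0.017), a call lost under 5 of 14 alternatives, among them without old replicate 2 or young replicate 2 or 3 (1.78 to 1.95), and the averaged difference was 1.00, SE 0.23, adjusted p = 0.00834, positive at 6 of 6 time points.

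Acot1, the cytosolic form, was called higher in old livers at 48 (1.61, SE 0.56, adjusted p = 0.037), at 104, 14.2 and 28.0 CPM against 5.87, 20.6 and 21.2 before. The groups overlap, and without replicate 1 the value was 0.41 (adjusted p = 0.602), without the libraries carrying Y-linked transcripts 0.03, and without any 1 library before 1.24 to 1.89 (adjusted p 0.0561 to 0.13). At 72 Acot1 was at 77.4, 42.8 and 35.4 CPM and called higher (1.70, SE 0.56, adjusted p = 0.045), a call lost under 10 of 14 alternatives, among them without any 1 of the 6 libraries compared (adjusted p 0.0559 to 0.165). Acot1 and Acot2 share 24.5% of the 50-base stretches of Acot2, so the split of reads between them is uncertain. Acot12, a cytosolic thioesterase that acts on acetyl-CoA, fell in young livers from 214, 209.9 and 224 CPM before to 73.9, 106 and 54.0 at 48 and 63.3, 60.5 and 98.2 at 72. No library at either time reached the level before, and both calls held under all 14 alternatives (-1.47, SE 0.25, adjusted p = 7.7e-05, and -1.55, SE 0.25, adjusted p = 0.00026). Old livers held 127, 147 and 189 CPM before, 106, 169.6 and 109.6 at 48 and 100.2, 94.3 and 64.1 at 72, with -0.27, SE 0.25 at 48 and a called -0.84, SE 0.25, adjusted p = 0.0246 at 72, not called without old replicate 3 at 72 or old replicate 2 or 3 before (-0.88 to -0.65).

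Acot3 and Acot4 differed between libraries with and without Y-linked transcripts. Acot3, a peroxisomal thioesterase, was at 5.17, 751 and 655 CPM in old livers before and 29.0, 499 and 379.5 at 240, with the low value in the library with Y-linked transcripts each time. In young livers it was at 36.4, 282 and 169 CPM before and 8.73, 477 and 268 at 240, with the same library low. Averaged over groups, libraries with Y-linked transcripts were lower by 3.37 on the log2(CPM + 1) scale for Acot3 and by 1.16 for Acot4, in 11 of 12 groups each. Neither gene was called in any comparison of groups.

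Omega oxidation, which attacks the far end of the fatty acid, gave no call in the edgeR fit with 1 mean per group over all 36 libraries. Cyp4a14 was at 120.5, 439 and 663 CPM in old livers before and 1853, 1900.1 and 857 at 48, with all libraries at 48 above all before, a log2 change of 1.92, SE 0.72, adjusted p = 0.0552, and a call under 3 of 14 alternatives, among them without old replicate 3 at 48 (adjusted p = 0.039). Young livers held 293, 448 and 475 CPM before and 1036, 749 and 477 at 48 (0.90, SE 0.71, adjusted p = 0.399, and 0.0487 in a fit of only these groups). The age difference was 1.03 (adjusted p = 0.392). Cyp4a10 was at 49.8, 134 and 238 CPM in old livers before and 504, 299.8 and 212 at 48 (1.27, SE 0.68, adjusted p = 0.178, and 1.61, adjusted p = 0.0462, with a term for Y-linked transcripts), and at 129, 307 and 258 before and 267, 219 and 171 at 48 in young ones (-0.08, SE 0.67). The age difference of Cyp4a10 at 48 was 0.63 (adjusted p = 0.614), and 24.5% of its 50-base stretches also occur in Cyp4a32. Aldh3a2, the aldehyde dehydrogenase of this route, ranged over 176 to 779.6 CPM.

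Ketone body formation was represented by Bdh1, which interconverts acetoacetate and hydroxybutyrate. Bdh1 was at 338, 470 and 389 CPM in young livers before and 366, 330.4 and 307 at 48, and at 224, 346 and 322 in old livers before and 467, 139 and 364 at 48. The groups overlap in both ages, with log2 fold changes of -0.25, SE 0.34 and 0.12, SE 0.34, and Bdh1 was not called in any comparison.

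Other genes of the pathway were read from lists outside the 41. Of 31 tested genes of peroxisomal, transport and other oxidation, 0 were called higher and 6 lower in young livers at 48, beside 12.2% and 9.79% of all genes, and 3 higher and 7 lower in old ones, beside 12.1% and 12%. Of 19 partners and further targets of Ppara, 2 were called higher and 2 lower in young livers at 48, beside 12.2% and 9.79% of all genes. In old livers at 48, 5 were called higher and 2 lower, beside 12.1% and 12%. Among those called in old livers, Fgf21, a fasting hormone of the liver, rose by 5.17 log2 units (SE 1.12, adjusted p = 0.00187). Plin2, a lipid droplet coat protein, rose by 1.43 (SE 0.36, adjusted p = 0.00481). The others called were Creb3l3, Ucp2 and Cyp4a31 (higher) and Sirt3 and Acot13 (lower). The change to 48 was not called different between the ages in edgeR for Fgf21 (adjusted p = 0.121) or Plin2 (adjusted p = 0.0965). Single genes of these lists were not followed under the alternative settings. Between the ages at 48, 3 of these 19 were called higher in old livers (Fgf21, Plin2 and G0s2) and 0 lower, beside 4.42% and 6.78% of all genes.

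The age difference at 48 was then read separately in the libraries with and without Y-linked transcripts, as differences of log2(CPM + 1). In the libraries with them, 1 per age, all 41 members were higher in the old than in the young library, with a median difference of 0.90 beside -0.003 over all genes. In the libraries without them, 2 per age, 24 of 41 were higher, with a median of 0.05 beside -0.01. At 3 other time points the libraries with Y-linked transcripts gave the lower median. In the libraries with Y-linked transcripts the median age difference was -0.51 before (6 positive), -0.36 at 72 (10 positive) and -0.56 at 240 (7 positive), against -0.11, 0.37 and 0.01 in the others. At 48 Acot2 differed by 2.71 and 1.5, Pdk4 by 1.88 and 2.05, Ehhadh by 1.62 and 0.86, and Hadha by 1.04 and 0.40 in the 2 kinds. Aldh3a2 differed by 2.01 in the first kind and -0.42 in the second, and Acaa1b by 0.58 and -1.14. A fit with a mean for each group and kind, which has 12 residual degrees of freedom, all from the libraries without Y-linked transcripts, called 0 members for the difference between the kinds (background 0%). In it 11 members had an unadjusted p under 0.05, 36 of 41 were positive, and the lowest adjusted p was 0.434 (Aldh3a2).

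**Figure D5:**
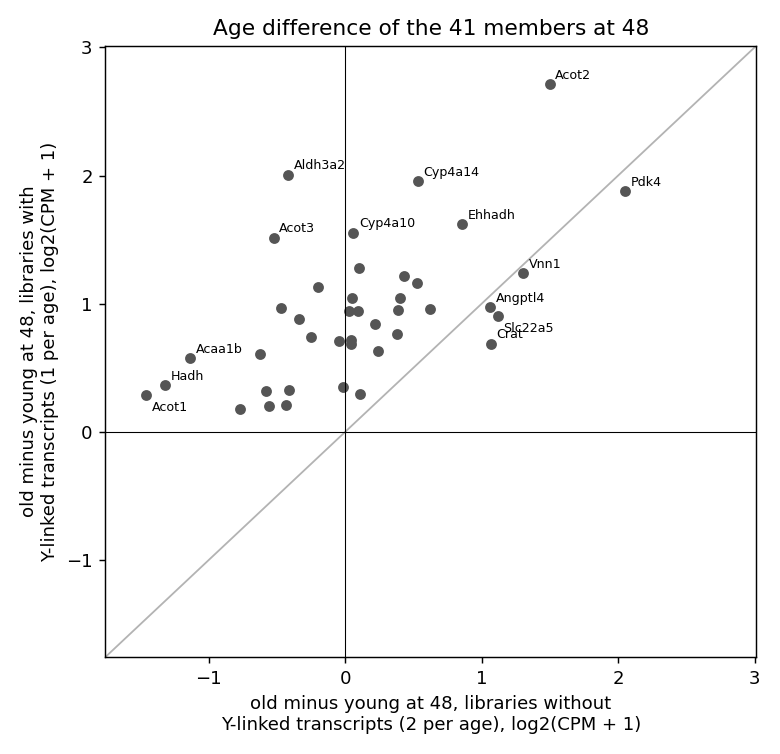
Difference between old and young livers at 48 for each member on the log2(CPM + 1) scale, in libraries without Y-linked transcripts (x axis, mean of 2 libraries per age) and with them (y axis, 1 library per age). All 41 points lie above 0 on the y axis, 24 lie right of 0 on the x axis, and points above the grey line differ more in the libraries with Y-linked transcripts.

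The change from before to 48 in old livers split in a similar way. Its median was 0.99 with 34 positive values in the libraries with Y-linked transcripts and -0.06 with 20 positive values in the others. The test of this difference called 2 members, Acot3 and Acot4, beside 0.0372% of all genes, with 9 unadjusted p-values under 0.05. In young livers the medians were -0.32 with 12 positive values and -0.12 with 17.

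Markers of dividing cells also differed at 48. The summed level of 6 proliferation markers was 3299, 1835 and 3441 CPM in young livers at 48 and 307, 50.4 and 711 CPM in old ones. Before, it was 64.1, 86.5 and 86.4 CPM in young and 113, 130 and 71.2 CPM in old livers. Old replicate 2 at 48, the library with the highest Pdk4, Ehhadh and Slc22a5, had the lowest proliferation sum of the group, below every old library before. Over all genes, that library also lay furthest from its group mean among the 36 (median absolute deviation 0.288 in log2(CPM + 1)). It also had the lowest sum of 8 Kupffer cell and monocyte markers there, 101 CPM against 369 and 592 in replicates 1 and 3, and the highest sum of 5 cholangiocyte markers, 215 CPM against 67.8 and 56.7. Hepatocyte markers summed to 58771, 45608 and 59361 CPM in the same libraries. Of the adipocyte list, Cidec, which hepatocytes with lipid droplets also express, brought the sum to 179, 214 and 6.75 CPM, against at most 5.17 CPM in young livers at 48. The part of these markers in the values at 48 was not tested.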

How the data were processed

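Ribosome-depleted total RNA from frozen livers was sequenced, and the authors deposited 1 table of raw counts per gene symbol for each of the 36 libraries, per the labels and file headers. The submitters' processing notes name bcl2fastq 2.20.0, Trimmomatic 0.39, FastQC 0.11.9, STAR 2.7.5b, SAMtools 1.10, Picard 2.20.8, deepTools 3.5.0, featureCounts and the builds GRCm38 and mm10. The annotation, the use of strand and the treatment of reads with several matches are not given in the sources used here, so genes with close copies or overlapping neighbours have uncertain counts. The tables held 0 spike-in rows, so changes in total RNA per cell are not visible. The 27 symbols that read as dates stayed in as listed.

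Counts were tested in R 4.3.3 with edgeR 4.0.16 (TMM scaling with factors of 0.930 to 1.13, filterByExpr on the 12 groups, robust quasi-likelihood F tests, 1 mean per group over all 36 libraries). The Benjamini-Hochberg adjustment ran over the 13436 genes tested, and members were read from that table. The common biological coefficient of variation was 24.7%. The procedure was tested on simulated data. Alternatives were DESeq2 1.42.0, other scalings, no filter on low counts, a fit of only the groups compared, a replicate block, a term for Y-linked transcripts and leaving out each library. A fit without the 12 libraries with Y-linked transcripts, the contrast of the changes to 48 and the tests of the difference between kinds of library were added after the data were seen. Libraries counted as carrying Y-linked transcripts had over 10 CPM of raw totals summed over Ddx3y, Eif2s3y, Kdm5d and Uty.

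Libraries within a group differed by more than sampling noise: the lowest of 36 dispersion ratios was 5.09, where 1 is noise alone. The members and lists were chosen with earlier results of these data known. Library values and full statistics went to up to 4 called members with the largest change in each direction of a comparison (for the average only with 1 sign throughout) and, whatever their result, to Cpt1a, Acadm, Hadha, Ehhadh, Cyp4a10, Cyp4a14, Pdk4, Angptl4, Ppara and Bdh1. Values of further members were chosen after they were seen. Some other genes of the pathway are not reported here. Promoters and gene positions came from RefSeq and transcripts from GENCODE, all on GRCm38. Protein sequences were not used here, and shared transcript stretches of 50 bases stand in for protein identity.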

Additional observations from a re-analysis of the deposited data

Results flagged for a closer look

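The change from before to 48 in old livers differed between the libraries with and without Y-linked transcripts for Acot3 and Acot4, by a test of that difference in edgeR with an adjusted p of 0.0106 for each. These 2 genes were the only members called of 41, and 5 of 13436 genes were called in all. For Acot3 the difference between the kinds of library was 7.06 on the log2 scale, and for Acot4 it was 3.09. In the library with Y-linked transcripts Acot3 was at 5.17 CPM before and 87.1 CPM at 48, while the other libraries were at 751 and 655 CPM before and 107 and 68.9 CPM at 48. Acot4 was at 36.6 CPM before and 124 CPM at 48 in that kind, and at 229 and 243 CPM before and 95.4 and 92.9 CPM at 48 in the other. Each value of the kind with Y-linked transcripts rests on a single library per group, so the spread behind these p-values comes from the other kind alone, and the test was chosen after the data were seen. Acot3 shares 19.1% and Acot4 4.53% of their 50-base transcript stretches with other genes. What sets the 2 kinds of library apart besides these transcripts was not tested.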

How the results depend on the processing

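The number of members called moved by over 1.5 times in the following settings, and the cause was not tested. How many of all genes each setting called is not given here, so a change in power shared by all genes cannot be told apart. DESeq2 called 3 members for the interaction, 2 for the difference in change to 48, 5 in old mice at 120, 1 in young mice at 120 and 3 in young mice at 96. Median-of-ratios scaling gave 1 in young mice at 96, and total-count scaling 1 in old mice at 120 and 0 at 96. Without a filter the old counts were 1 at 120, 3 at 72 and 0 at 96, with 0 between ages at 96. Without the libraries carrying Y-linked transcripts they were 10 at 48, 2 at 96 and 9 at 120 in old mice, 4 in young mice at 48, 3 at 48 and 0 at 96 between ages, and 2 on average. Fitting only the groups compared gave, in old mice, 1 at 48, 2 at 72 and 0 at both 96 and 120, then 5 at 96 and 3 at 120 in young mice, and 0 at 48 and 2 at 96 between ages. With the term for Y-linked transcripts the counts were 1 for the difference in change to 48, 5 in old mice at 120 and 1 in young mice at 96. Leaving out 1 library at a time gave 9 to 18 members in old mice at 48, 1 to 4 at 72, 0 to 1 at 96 and 0 to 4 at 120. Between ages it gave 0 to 13 at 48 and 0 to 1 at 96, for the interaction 0 to 3, for the difference in change to 48 0 to 7, and in young mice at 96 0 to 1. Over all settings, 162 values of single members lost the call, 10 gained it and 1157 stayed on their side of the threshold, and no called value changed sign, although some uncalled ones did.

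Same-numbered libraries deviated together in every pair in 6 of 16 comparisons (correlations over 0.1, range -0.38 to 0.58 over all), a hint from the data only, since the labels do not say what a number marks. In each of these 6, the library with Y-linked transcripts was replicate 1 in both groups compared. The number and the kind of a library therefore cannot be told apart there. Old mice at 48 against before and the ages at 72 also had that kind under 1 number, without correlations over 0.1 in every pair. With the replicate number as a block nested in age, the counts were 3 in old mice at 72, 2 at 96 and 1 at 120, 1 in young mice at 96, 3 at 48 and 1 at 120 between ages, and 2 on average. In old mice at 48 the block gave 13. Depth limits the members with low counts most, and 3 libraries per group with a common spread of 24.7% leave small changes undetected.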
